A study of Mus musculus with 17 samples.

Results

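Bone morphogenetic protein (BMP) signalling was followed in the infarcted mouse heart through 10 genes chosen by name: the ligands Bmp4 and Bmp6, the receptors Bmpr1a and Bmpr2, the protease Bmp1, the secreted antagonists and binding proteins Grem1, Fstl1 and Fstl3, and the target genes Id1 and Id3. All 10 were found by symbol among the 31647 features of the count table. The hearts came from wild-type, young adult male C57BL/6 J mice. The left ventricle of 8 sham-operated mice was compared with the infarct zone of 9 mice at 5 days after permanent ligation of the left anterior descending artery, which supplies the front wall. Sham mice underwent the same surgery without the ligature, and both groups received isoflurane and buprenorphine for the operation and carried no labelled genetic change. The infarct was not reperfused, each library came from whole tissue of 1 heart, and the RNA was read from the 3′ ends of transcripts with molecular identifiers.

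BMP ligands are secreted dimers that bring together type I and type II serine/threonine kinase receptors, which phosphorylate SMAD1, SMAD5 and SMAD9. These enter the nucleus with SMAD4 and switch on target genes, of which the Id genes are the classic examples. Extracellular antagonists such as gremlin, noggin and chordin hold the ligands away from their receptors, and follistatins hold the related activins. In the heart the pathway is known for its part in valve and chamber formation, in endothelial cells and in the scar tissue of the injured ventricle.

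Of the 10 genes, 4 rose in the infarct zone (Bmp1, Fstl1, Fstl3 and Id3), 3 fell (Bmp6, Bmpr1a and Id1), 2 did not pass the test (Bmp4 and Bmpr2) and 1, Grem1, was at the detection floor in both groups. Calls came from the quasi-likelihood F-test of edgeR at an adjusted p under 0.05, with the Benjamini-Hochberg adjustment made over all 12301 genes tested. Across those genes 36.3% were called higher and 33.1% lower, so that a call in either direction was common in this comparison. For all 4 genes that rose, the lowest infarct zone value exceeded the highest sham value, a pattern found in 16.6% of the genes tested. In bulk tissue, fewer cells of a type and less RNA per cell cannot be told apart.

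**Figure D1:**
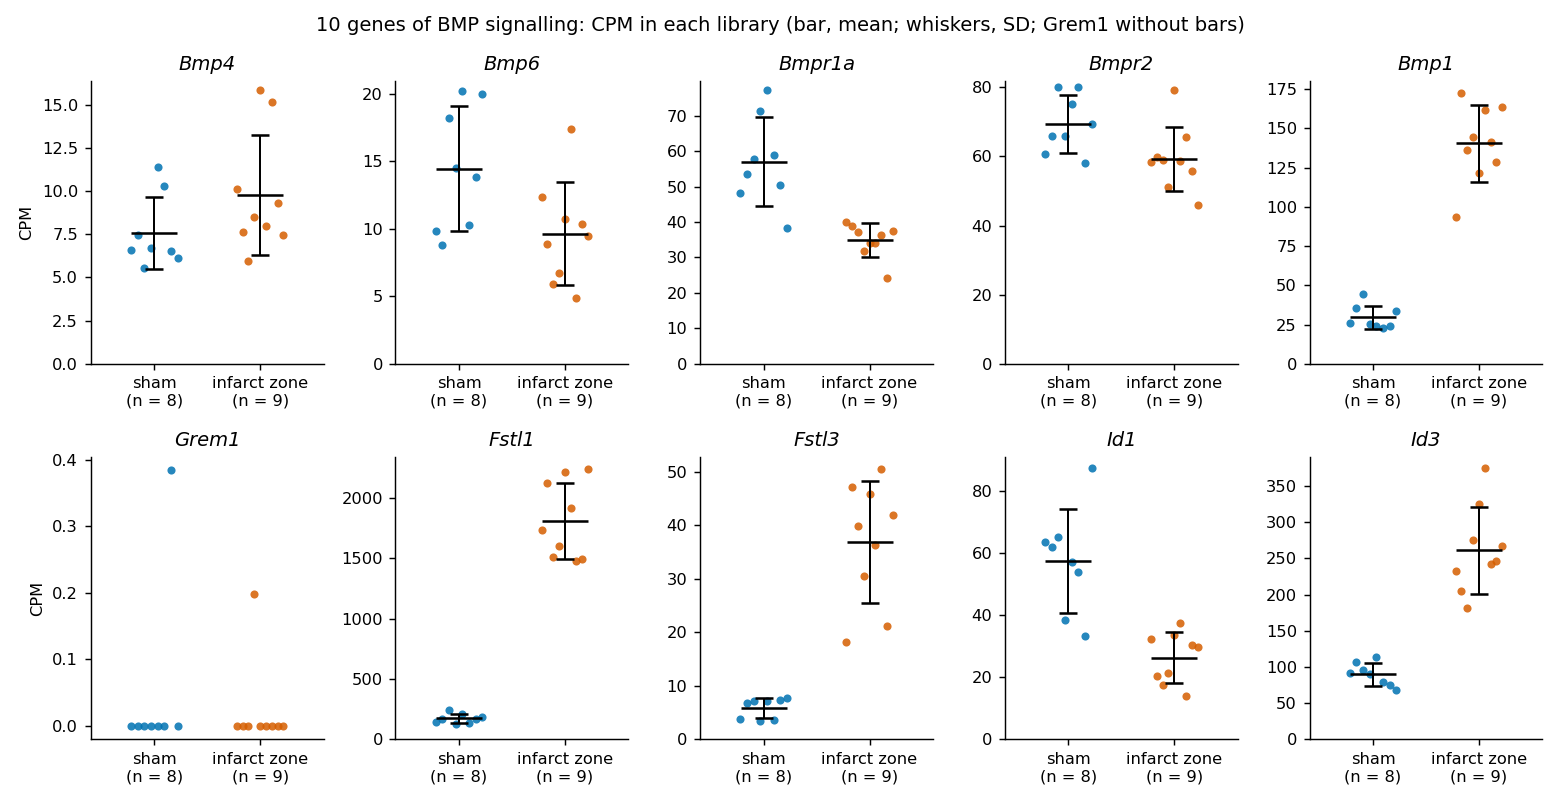
Level of each of the 10 genes in CPM (counts scaled to a common library size) for every sham (blue, n = 8) and infarct zone (orange, n = 9) library, with the mean and SD as black bars. The groups do not overlap for Bmp1, Fstl1, Fstl3 and Id3, they overlap for the other genes, and Grem1, drawn without bars, has a count in 1 library of each group.

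The libraries held 1237675 to 4738307 counts each, and values are given as CPM, with library sizes corrected by TMM, the trimmed mean of M values. Infarct zone replicate 1 stood apart from the other infarct zone libraries. Its mitochondrially encoded share was 19.5%, against 4.22% to 6.78% in the other 8 and 22.9% to 32.4% in sham, and its 8 ventricular cardiomyocyte markers summed to 29636 CPM, against 2826 to 6774 CPM in the other 8 and 66820 to 79417 CPM in sham. Without this library the 7 calls kept their direction and their side of the threshold, and Bmpr2 was called lower as well. Fibroblast markers were higher in the infarct zone in 7 of 8, macrophage markers in 8 of 8, smooth muscle and pericyte markers were mixed (4 higher and 3 lower of 7), and endothelial markers were lower in 4 of 8 with none higher. The part of these cell types in the results that follow was not tested.

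The scaling of the libraries set the direction of the smaller changes. With scaling by total counts alone, the median log2 fold change of all genes moved from 0.05 to 1.14, and 85.8% of the called genes were higher in place of 52.3%. Under that scaling 7 of the 10 genes were called higher and none lower. Relative to the median of all genes the values hardly moved: Bmpr1a was 0.76 below it under both scalings on the log2 scale, and Id1 was 1.19 below it with TMM and 1.22 below it with total counts.

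The ligands came first. Bmp4 is a secreted ligand that type I receptors such as BMPR1A bind with high affinity. It ranged from 5.54 to 11.4 CPM in sham with a median of 6.63, and from 5.93 to 15.9 CPM in the infarct zone with a median of 8.51. Most infarct zone libraries lay above the sham median (8 of 9), yet the groups overlapped and only 2 libraries exceeded every sham heart. Its log2 fold change of 0.31 ± 0.23 (SE) did not pass the test in edgeR (adjusted p = 0.230), and it was called higher with total counts alone (1.39).

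Bmp6, a ligand made largely by endothelial cells and known for setting hepcidin in iron metabolism, fell 1.53-fold. Sham hearts held 8.82 to 20.2 CPM with a median of 14.2, and infarct zones 4.88 to 17.4 CPM with a median of 9.46. Of the 9 infarct zones 8 lay below the sham median and 3 below every sham heart, so that the groups overlapped. The log2 fold change was -0.61 ± 0.23 (adjusted p = 0.0240, edgeR). This call was the least stable of the 7: it was lost in 8 of 26 alternative settings, among them upper quartile scaling (-0.50, adjusted p = 0.0586), thinning all libraries to the smallest total (-0.36, adjusted p = 0.276) and the removal of sham replicate 5, of sham replicate 8, of infarct zone replicate 3 or of infarct zone replicate 4, and with total counts alone the sign turned (0.46). Its 3′ end shares 224 bases with Txndc5 on the opposite strand, which rose from 47.0 ± 12.5 to 216 ± 34.4 CPM, and whether reads were counted by strand is not given in the sources used here.

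Within a library the ratio of Bmp4 to Bmp6 needs no scaling. The log2 ratio rose by 0.90, from -0.86 ± 0.59 (SD, n = 8) in sham to 0.04 ± 0.72 (SD, n = 9) in the infarct zone. The adjusted p was 0.0121 over 4 ratios in an exact two-sided permutation test, which has 24310 arrangements. In 3 of 9 infarct zones it exceeded every sham heart. The call was lost when medians were compared in place of means (0.77, adjusted permutation p = 0.0634).

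Among 23 other ligands of the BMP, GDF and activin groups, 7 had enough counts to be tested, of which 6 rose and 1 fell. The 6 that rose had sham medians of 0 to 5.5 counts and passed the count filter through the infarct zone. Their number is thus no separate result. Without the filter on low counts 19 were tested, of which 7 rose and 3 fell. Inhba, the activin A subunit, rose from 2.57 ± 0.98 to 27.3 ± 11.7 CPM (log2 fold change 3.39). Gdf15, a stress-induced family member, rose from 1.99 ± 1.90 to 17.3 ± 4.34 CPM (3.17). Bmp2, the closest relative of Bmp4, rose from 2.65 ± 2.24 to 7.82 ± 3.12 CPM (1.56 ± 0.38, adjusted p = 7.69e-04, edgeR). Bmp7 was not tested for its low counts, with 2.81 ± 1.75 CPM in sham against 0.33 ± 0.53 CPM in infarct zones. Bmp10 was not analysed here.

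Of the 2 receptors, Bmpr1a fell and Bmpr2 did not pass the test. Bmpr1a, the type I receptor ALK3, fell 1.63-fold. Its level ran from 38.3 to 77.1 CPM in sham with a median of 55.7, and from 24.3 to 39.9 CPM in the infarct zone with a median of 36.3. In 7 of 9 infarct zones it lay below every sham heart, and in all 9 below the sham median. The log2 fold change was -0.70 ± 0.13 (adjusted p = 4.39e-05, edgeR), and it was 0.38 with total counts alone. Bmpr2, the type II receptor that partners it, ran from 58.2 to 80.1 CPM in sham with a median of 67.6, and from 46.0 to 79.3 CPM in the infarct zone with a median of 58.8. Only 3 infarct zones lay below every sham heart, and 1 lay among the highest sham values. Its log2 fold change of -0.23 ± 0.11 missed the threshold (adjusted p = 0.0666, edgeR). It was called lower when a single library was left out, namely sham replicate 1, sham replicate 7, infarct zone replicate 1 or infarct zone replicate 5 (-0.26 to -0.27), and higher with total counts alone (0.86).

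The ratio of Bmpr1a to Bmpr2 fell by 0.46 on the log2 scale, from -0.30 ± 0.30 (SD, n = 8) to -0.76 ± 0.29 (SD, n = 9), with an adjusted p of 0.00932 in the exact permutation test. In 2 of 9 infarct zones it lay below every sham heart. The call was lost when medians were compared in place of means (-0.37, adjusted permutation p = 0.0634).

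Of 14 other receptors and co-receptors 12 were tested, 2 rose and 5 fell, a split that turned to 6 higher and 1 lower with total counts alone. The median of the 12 was -0.45, beside 0.05 for all genes tested. The type I receptors Acvr1 (ALK2) and Acvrl1 (ALK1, an endothelial receptor) rose, from 11.0 ± 2.77 to 26.6 ± 7.17 CPM (log2 fold change 1.27) and from 37.4 ± 8.80 to 81.1 ± 20.6 CPM (1.12). Hjv, a co-receptor for BMP6 that is made in striated muscle and liver, fell from 266 ± 26.9 to 25.1 ± 22.4 CPM (-3.43 ± 0.31, adjusted p = 1.40e-09, edgeR), and by 3.99 on the log2 scale without infarct zone replicate 1. Eng, the endothelial co-receptor endoglin, did not pass the test (-0.20, adjusted p = 0.143, edgeR) and was 0.87 with total counts alone.

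Bmp1 carries the family name but is an astacin metalloproteinase, which trims the C-terminal propeptides of fibrillar procollagens and also cleaves chordin. It rose 4.81-fold. Sham hearts held 22.8 to 44.3 CPM with a median of 25.7, and infarct zones 93.5 to 173 CPM with a median of 142. The lowest infarct zone value was above the highest sham value. This was a log2 fold change of 2.27 ± 0.15 (adjusted p = 1.20e-11, edgeR), which stayed between 2.21 and 3.36 in 27 alternative settings.

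A list of procollagen C-proteinases, their enhancers and substrates held 9 genes including Bmp1. All 7 that were tested rose, with a median log2 fold change of 3.42 and no overlap between the groups in any of them. Over all genes tested 36.3% were called higher, and 16.6% had every infarct zone library above every sham library. Pcolce, which speeds up the cleavage by BMP1, rose from 75.8 ± 10.7 to 327 ± 45.9 CPM (2.11), and Pcolce2 rose least among the 7, from 28.9 ± 3.70 to 53.1 ± 7.08 CPM (0.87). Lox, the collagen cross-linking enzyme that BMP1 activates, rose most, from 27.4 ± 8.78 to 679 ± 261 CPM (4.64). The collagen genes Col1a1, Col1a2 and Col3a1 of this list are also fibroblast markers here. The related protease Tll1 had at most 1 count in a sham library and 17 in an infarct zone library and was not tested. Among 4 proprotein convertases, which cleave ligand precursors, Furin rose (0.28, adjusted p = 0.0267, edgeR; lost without sham replicate 3, 5 or 6, with adjusted p of up to 0.0709), Pcsk6 fell (-0.81, adjusted p = 0.00455; 0.24 with total counts alone) and 2 did not pass the test.

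Of the 3 antagonists and binding proteins, Fstl1 and Fstl3 rose and Grem1 was not detectable. Grem1, gremlin 1, binds BMP2 and BMP4. It gave a single count in 1 sham library and in 1 infarct zone library and 0 in the other 15, which is below the floor of 3 counts (on average 1.79 CPM for sham and 1.06 CPM for infarct zone libraries). A difference in Grem1 was therefore not detectable at this depth.

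Fstl1, a glycoprotein secreted by mesenchymal cells that has been reported to bind BMP4, rose 10.4-fold. Sham hearts held 126 to 241 CPM with a median of 170.3, and infarct zones 1474 to 2235 CPM with a median of 1731. The groups were far apart, and the signed log2 fold change was above that of 97.8% of the genes tested, those that fell included. On the log2 scale it rose by 3.38 ± 0.18 (adjusted p = 4.72e-13, edgeR). Fstl3, which binds activins, GDF11 and myostatin, rose 6.16-fold. It ran from 3.35 to 7.78 CPM in sham with a median of 6.96, and from 18.1 to 50.4 CPM in the infarct zone with a median of 39.9. Again no library of one group reached the other. On the log2 scale Fstl3 rose by 2.62 ± 0.23 (adjusted p = 1.17e-09, edgeR). The last 500 bases of Fstl3 lie opposite Prss57, which had at most 1 count in any library.

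Fstl1 rose more than Fstl3. The log2 ratio of Fstl1 to Fstl3 went from 4.78 ± 0.25 (SD, n = 8) to 5.66 ± 0.48 (SD, n = 9), a rise of 0.88 with an adjusted p of 9.05e-04 in the exact permutation test, and 8 of 9 infarct zones exceeded every sham heart.

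Of 18 other extracellular antagonists and modulators 8 were tested, 4 rose and 1 fell (7 and 1 with total counts alone). Bmper, a modulator that binds BMP4 in the matrix, rose from 4.86 ± 1.37 to 20.3 ± 7.83 CPM (log2 fold change 2.06). Nbl1, a DAN family antagonist, rose from 10.4 ± 3.67 to 21.5 ± 4.18 CPM (1.07). Fst, follistatin, rose from 2.33 ± 1.53 to 9.08 ± 5.56 CPM (1.97 ± 0.42, adjusted p = 2.50e-04, edgeR). Without infarct zone replicate 1, Fst and Kcp no longer had enough counts to be tested, and 2 of the remaining 6 rose and 2 fell. Leaving out infarct zone replicate 2, 3 or 4 also left 6 tested, of which 2 rose and 1 fell. The classical antagonists were scarce: Nog, Chrd and Chrdl1 were not tested, with means of 0.09 to 3.12 CPM in the infarct zone. Twsg1, which assists chordin, was at 66.5 ± 8.16 and 62.5 ± 11.3 CPM and did not pass the test (-0.09, adjusted p = 0.478, edgeR); with total counts alone it was 1.0.

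**Figure D2:**
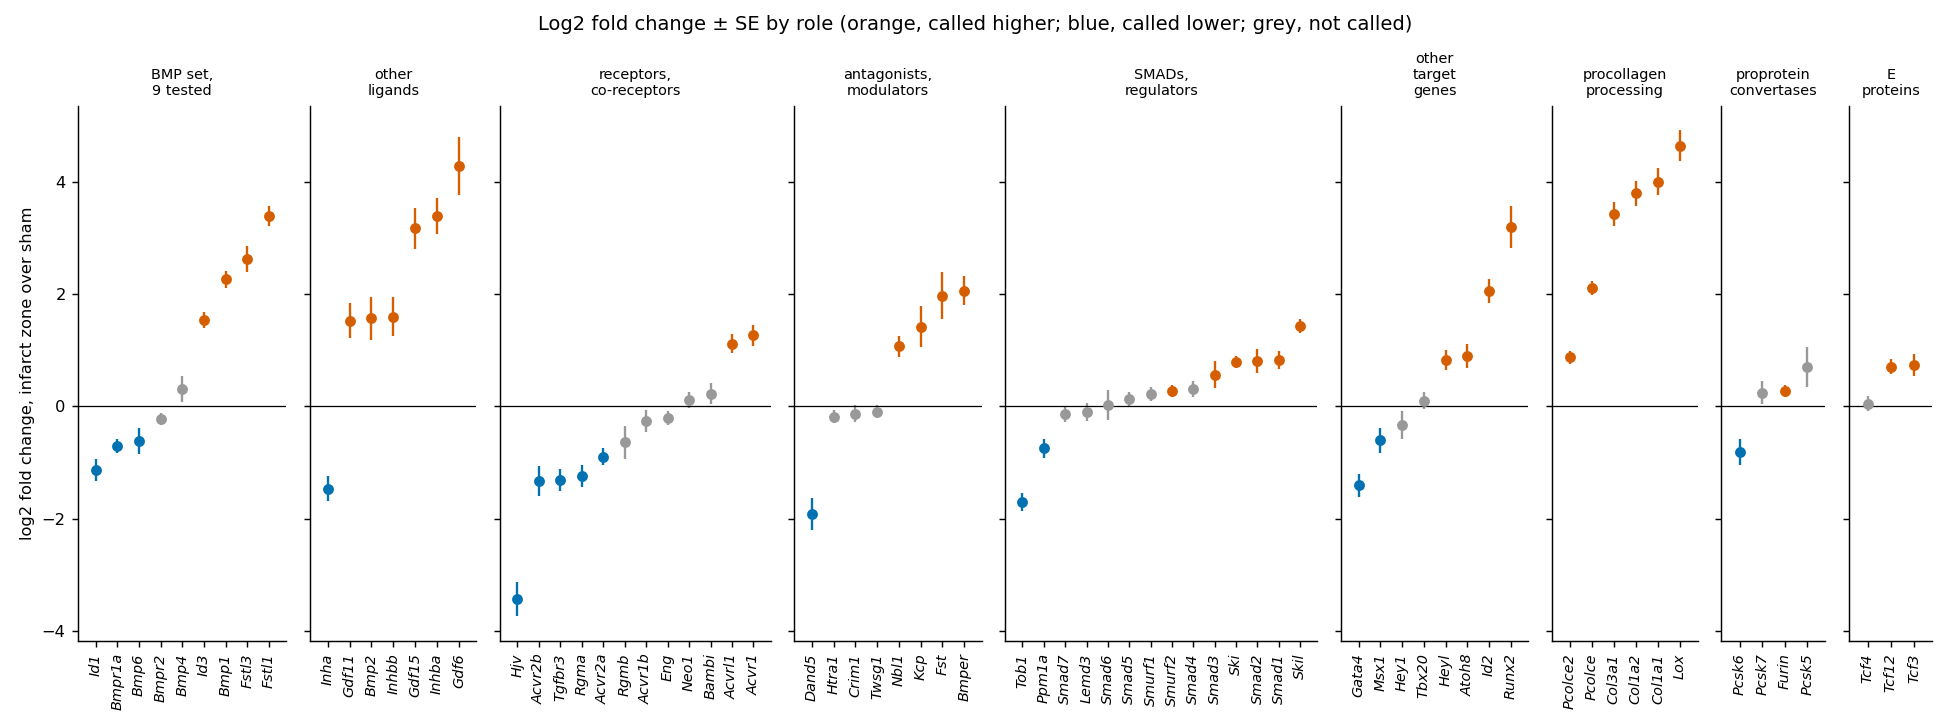
Log2 fold change with its SE (edgeR, infarct zone over sham) of the 9 tested genes of the BMP set and of the 62 other tested pathway genes, each shown in 1 panel by role; orange was called higher, blue lower and grey not called. In the panels of other genes all ligands but Inha and all genes of procollagen processing lie above 0, and the receptors reach from -3.43 to 1.27.

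SMADs carry the signal from the receptors to the nucleus. Of 15 genes of SMADs and their regulators 14 were tested, 6 rose and 2 fell, a split of 13 and 1 with total counts alone. Smad1 rose from 15.7 ± 4.31 to 27.8 ± 4.97 CPM (log2 fold change 0.82), and Smad5 did not pass the test (0.14, adjusted p = 0.331, edgeR). Skil, a co-repressor of SMADs, rose most (1.43), and Tob1, which restrains BMP-receptor SMADs, fell most (-1.70). The inhibitory Smad6 and Smad7, both also direct targets, did not pass the test (0.02 and -0.13; 0.95 for Smad7 with total counts alone). Smad9 was too low to be tested, with 1.64 ± 0.88 CPM in sham against 0.98 ± 0.61 CPM in infarct zones.

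The 2 Id genes moved in opposite directions. ID proteins are helix-loop-helix proteins without a DNA-binding part, and they hold E proteins off the DNA. Id1 fell 2.20-fold: sham hearts held 33.1 to 87.2 CPM with a median of 59.3, and infarct zones 14.1 to 37.4 CPM with a median of 29.7. All 9 infarct zones lay below the sham median and 7 below every sham heart. The log2 fold change was -1.14 ± 0.19 (adjusted p = 1.73e-05, edgeR); with total counts alone it was -0.08 (adjusted p = 0.696), the 1 of 27 alternatives without a call. Id3 rose 2.90-fold, from 67.8 to 114 CPM in sham with a median of 90.9 to 181 to 375 CPM in the infarct zone with a median of 247. No infarct zone was as low as any sham heart. Its rise on the log2 scale was 1.53 ± 0.15 (adjusted p = 3.57e-09, edgeR).

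The ratio of Id1 to Id3 counts within a library showed this most plainly. It ran from 0.429 to 1.29 in sham with a median of 0.626, and from 0.0583 to 0.139 in the infarct zone with a median of 0.100. All 9 infarct zones lay below all 8 sham hearts. The log2 ratio fell by 2.65, from -0.68 ± 0.50 (SD, n = 8) to -3.33 ± 0.36 (SD, n = 9), a 6.27-fold drop. The exact permutation p was 4.11e-05, the smallest that 24310 arrangements allow, and the adjusted p over 4 ratios was 1.65e-04. It stayed between -2.72 and -2.50 in all 21 alternatives and is not touched by scaling.

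**Figure D3:**
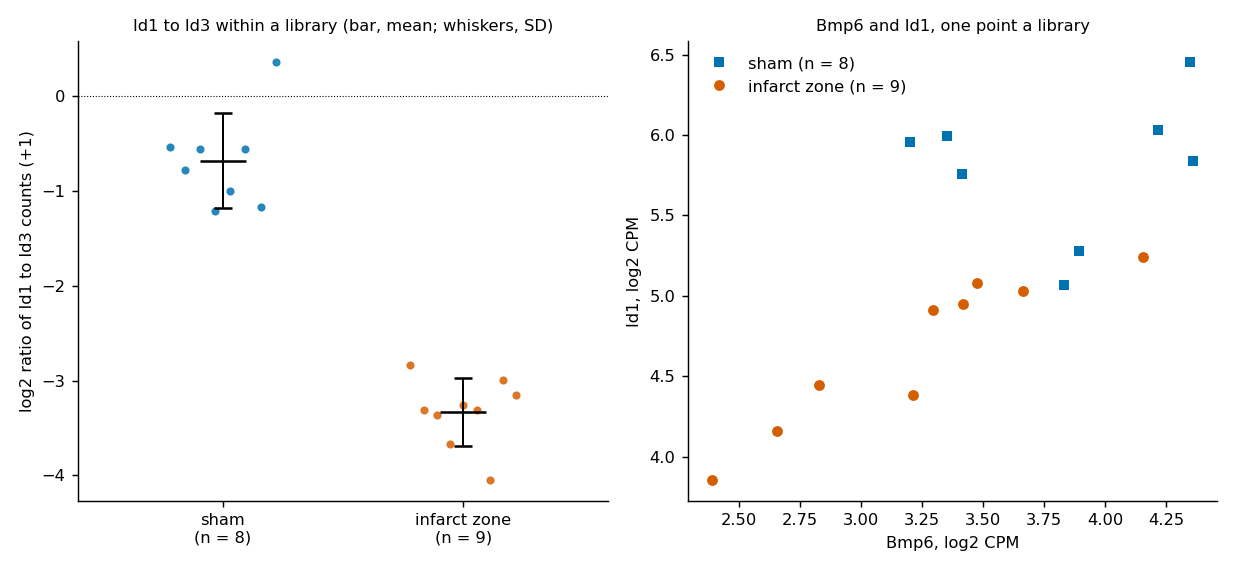
Left, log2 ratio of Id1 to Id3 counts (1 added to each) in every sham (blue, n = 8) and infarct zone (orange, n = 9) library with the mean and SD; the groups are separate, and sham replicate 8 is the highest at 0.36. Right, Bmp6 against Id1 in log2 CPM, 1 point a library; the infarct zone points lie along a line (r = 0.93) and the sham points do not (r = 0.17).

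Of 18 other target genes 11 were tested, 4 rose and 2 fell, with a median of 0.10 (10 and 1 with total counts alone, with a median of 1.18). The split was even where genes of low counts were kept. Without the filter 4 rose and 4 fell of 18 (median -0.17), and with DESeq2 4 rose and 4 fell of 16 (median -0.06). Id2, the third Id gene tested, rose with Id3, from 16.5 ± 7.90 to 69.8 ± 11.8 CPM (log2 fold change 2.06). Id4 was not tested, at 2.03 ± 1.09 and 3.88 ± 2.11 CPM. Gata4, a cardiac transcription factor, fell from 72.6 ± 10.8 to 27.6 ± 13.8 CPM (-1.41). Of the 3 E proteins that ID proteins bind, Tcf3 (0.74) and Tcf12 (0.71) rose and Tcf4 did not pass the test. Over all 99 other pathway genes, 62 were tested, 31 rose and 12 fell (51 and 4 with total counts alone), and their median log2 fold change was 0.29, beside 0.05 for all genes tested. Of all genes tested 36.3% were called higher and 33.1% lower. Without the filter on low counts 32 rose and 17 fell of 94, with a median of 0.32 beside 0.24 for all genes. With DESeq2 31 rose and 15 fell of 81.

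Among the infarct zones themselves, Bmp6 and Id1 varied together. Bmp6 ran from 4.88 CPM in replicate 7 to 17.4 CPM in replicate 6, and the same 2 libraries held the lowest and the highest Id1, at 14.1 and 37.4 CPM. Pearson's r of log2 CPM was 0.93 (exact permutation p = 5.79e-05, adjusted p = 0.00208 over 36 pairs) and Spearman's rho 0.97 (exact permutation p = 1.65e-04, adjusted p = 0.00595). Without the 2 libraries farthest from the Bmp6 median r was 0.90, and with 1 library left out at a time it stayed between 0.90 and 0.96. With total counts alone r was 0.92 (adjusted permutation p = 0.0137) and rho 0.90 (adjusted permutation p = 0.0730), so that r passed and rho did not. In sham r was 0.17 (exact permutation p = 0.673, n = 8) and rho 0.19 (exact permutation p = 0.665), and the difference between the groups was not tested. Within the infarct zone r with the summed endothelial markers was -0.16 for Bmp6 and -0.28 for Id1, and r with the total count was -0.16 and -0.29, with rho between -0.27 and -0.07, none past the threshold (adjusted permutation p = 0.676 for each r and 0.880 for each rho, over 4 relations chosen after seeing the data). Without the 2 libraries farthest from the median of the gene, r with the total count was -0.61 for Bmp6 and -0.80 for Id1. No other pair passed among the 36; Bmp4 and Bmpr2 had an unadjusted exact p of 0.0348 (r = 0.69, rho = 0.42), and r was -0.0025 without 2 libraries. In sham no pair passed, and the highest r was 0.84 for Fstl1 and Fstl3 (exact permutation p = 0.0103, adjusted p = 0.371; rho = 0.71).

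Set beside the markers of 2 cell types, the 9 detected genes fell into different groups. Endothelial markers summed to 495 to 955 CPM in sham hearts and 361 to 610 CPM in infarct zones. The ratio of Bmp6 to that sum changed by -0.10 on the log2 scale (adjusted p = 0.751), that of Bmpr1a by -0.17 (adjusted p = 0.436) and that of Bmpr2 by 0.29 (adjusted p = 0.108); all came from exact permutation tests adjusted over 18 ratios. For Id1 the ratio fell by 0.61 (adjusted p = 0.0283), a call lost when sham replicate 5, sham replicate 8, infarct zone replicate 3 or infarct zone replicate 7 was left out (-0.57 to -0.48). For Bmp4, Id3, Bmp1, Fstl3 and Fstl1 it rose, by 0.80, 2.04, 2.77, 3.03 and 3.91.

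Fibroblast markers summed to 1541 to 2981 CPM in sham hearts and 12685 to 20695 CPM in infarct zones, and all 9 ratios to this sum differed between the groups. Fstl1 alone gained on this sum, by 0.38 on the log2 scale (adjusted permutation p = 7.40e-04). Its ratio lay above every sham heart in 8 of 9 infarct zones. The ratio changed by -0.50 for Fstl3, -0.76 for Bmp1 and -1.49 for Id3, and by -2.73 to -4.14 for Bmp4, Bmpr2, Bmp6, Bmpr1a and Id1. Of the 9 genes, Fstl1, Fstl3 and Bmp1 lay nearest to the fibroblast sum in size of change, and Bmp6, Bmpr1a and Bmpr2 nearest to the endothelial sum. No other marker sum was used in this way. The fibroblast sum is weighted by level: Col1a1, Col1a2 and Col3a1 averaged 5641, 4223 and 3947 CPM in infarct zones. The median log2 fold change of the 8 fibroblast markers was 2.58, beside 2.62 for Fstl3. That Fstl1 alone gained and Fstl3 lost therefore holds for this weighted sum. Ratios to single fibroblast markers were not tested. The macrophage sum (3.19 on the log2 scale) and the neutrophil sum (3.36) lay nearer to the 3.38 of Fstl1 than the fibroblast sum did. The remaining sums lay farther from it. Which cells held these transcripts was not tested.

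**Figure D4:**
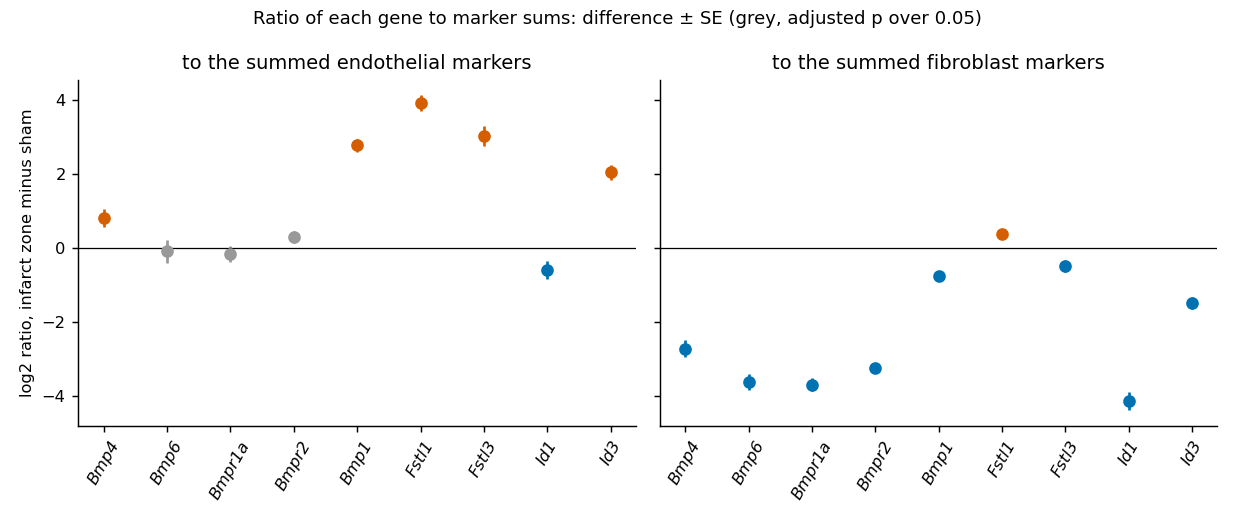
Difference in mean log2 ratio (infarct zone minus sham, with SE) of each detected gene to the summed endothelial markers (left) and to the summed fibroblast markers (right); orange rose, blue fell and grey did not pass. Bmp6, Bmpr1a and Bmpr2 lie near 0 on the left, and Fstl1 is the one gene above 0 on the right.

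As a description of likeness, each gene was set beside 9354 or 9355 other genes (mean of 10 CPM or more) by Pearson's r of log2 CPM centred on the group means, over 17 libraries that share their depth and their tissue makeup. The most alike gene was Sparc for Fstl1 (r = 0.84), Fn1 for Bmp1 (r = 0.84) and Bmper for Fstl3 (r = 0.87), genes of matrix proteins and of a BMP modulator that rose in the infarct zone as well. It was Fxyd6 for Id1 (r = 0.81, log2 fold change of Fxyd6 1.73), Rsbn1l for Id3 (r = 0.80, -0.55) and Gm9780 for Bmp6 (r = 0.83, 1.08). For Bmp4 it was Auts2 (r = 0.79, -0.90), for Bmpr1a Morf4l1 (r = 0.75, -0.0022) and for Bmpr2 Taf3 (r = 0.80, -0.71). Fxyd6 and Gm9780 thus changed against Id1 and Bmp6, and Rsbn1l against Id3. With values centred on the group means, r does not bear on the direction of change between the groups.

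Promoter windows of 250 bases upstream of the start were found in RefSeq (GRCm38.p6) for 8 of the 10 genes, all but Bmp1 and Id1. They were searched on both strands for CAGAC or GTCTG, the SMAD box, for GGCGCC, a GC-rich element of SMAD1 and SMAD5, and for CANNTG, the E box of E proteins. These motifs were chosen after the sequences had been seen. The windows follow RefSeq starts, and against GENCODE M21 they are not all upstream of the gene. All 250 bases of the Bmp6, Bmpr2 and Id3 windows lie in annotated exons. So do 182 bases for Fstl1, 141 for Bmpr1a and 2 for Fstl3, and 0 for Bmp4 and Grem1. The SMAD box was in 4 of the 8 windows (Bmp6, Grem1, Fstl3 and Id3), against 42.2% of all 32851 windows. GGCGCC was in 3 (Bmpr1a, Bmpr2 and Grem1), against 9.59%, and CANNTG was in 3, against 66.2%. Fstl3 and Id3 rose and have 2 SMAD boxes each, while Fstl1 rose and has none. Bmp6 fell and has 1, Bmpr1a fell and has none, and Bmp4 was not called and has none. The windows of Fstl3 and Bmp4 are shown in full where they do not run into an annotated exon. For Id3 and Bmp6, whose windows lie wholly in annotated exons, the boxes with their flanks are shown. Capitals mark the SMAD box. A match is a description of the letters and not a binding site.
Fstl3, chr10:79777024-79777271, plus strand: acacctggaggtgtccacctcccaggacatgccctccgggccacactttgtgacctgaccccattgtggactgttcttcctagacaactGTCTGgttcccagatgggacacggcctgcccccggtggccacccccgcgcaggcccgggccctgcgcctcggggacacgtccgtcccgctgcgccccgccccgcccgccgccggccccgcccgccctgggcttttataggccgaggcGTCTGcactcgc
Bmp4, chr14:46390670-46390919, minus strand: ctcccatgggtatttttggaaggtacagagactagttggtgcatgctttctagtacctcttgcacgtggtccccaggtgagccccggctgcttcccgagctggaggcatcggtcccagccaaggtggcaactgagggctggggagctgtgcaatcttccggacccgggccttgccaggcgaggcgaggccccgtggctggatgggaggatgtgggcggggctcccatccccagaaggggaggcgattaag
Id3, first box, chr4:136143647-136143667, plus strand: ctcggcgtCAGACcagcctaa
Id3, second box, chr4:136143746-136143766, plus strand: ccttggcgGTCTGttttgaat
Bmp6, chr13:38345589-38345609, plus strand: cacgtgtgCAGACtgcgagtg

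The genes lie apart in the genome (GRCm38, GENCODE M21). Id3, which rose, is at chr4:136143497-136145755 and Id1, which fell, at chr2:152736251-152737410, each a short protein-coding gene on the plus strand. Bmp4 (chr14:46383520-46390669), Bmpr1a (chr14:34410734-34503341) and Bmp1 (chr14:70474558-70520234) share chromosome 14 and its minus strand, and of these Bmp1 rose, Bmpr1a fell and Bmp4 was not called. Fstl1 is at chr16:37776873-37836514 and Fstl3 at chr10:79777272-79782630.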

How the data were processed

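RNA from 8 sham left ventricles and 9 infarct zones was sequenced from transcript 3′ ends. Per the labels and the study's methods, the authors trimmed the reads, removed PCR duplicates by molecular identifiers, mapped to mm10 and deposited raw counts per gene (HTSeq); Bowtie2, bcl2fastq and DESeq2 are named in the submitters' processing notes. The annotation release and the use of strand are not given in the sources used here. All 17 columns were used.

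Counts were tested with edgeR 4.0.16 (filterByExpr with a minimum of 10, TMM factors 0.613 to 1.54, two-sided quasi-likelihood F-test, Benjamini-Hochberg at 0.05, no covariates). Log2 CPM used a prior count of 1, and ratios 1 added to each count. Ratios and correlations were tested by exact permutation (SciPy 1.17.1; 24310 arrangements of the libraries, 362880 or 40320 pairings). Of 6 planned ratios between the genes, the 2 with Grem1 could not be formed. The endothelial and fibroblast sums used in ratios hold 8 markers each, and the marker lists as a whole hold 3 to 8 (5 for neutrophils). Replicates are separate hearts as far as the labels tell. The genes and lists were chosen with earlier results of these data known, so no list's count is independent evidence. Other pathway genes were named by a rule: in each list the highest and lowest called gene with a mean of at least 10 CPM, plus names given in advance, of which 1 is not reported here. Near-identical 3′ ends were searched with BLAST 2.17.0 (last 500 bases, at least 100 bases at 95%). Alternatives were other scalings and filters, DESeq2 1.42.0, thinning, a replicate block and leaving out each library. The floor of 3 counts covers counting error only.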

Additional observations from a re-analysis of the deposited data

Results flagged for a closer look

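Of 26 groups of values examined for a single distant library, 1 was singled out; chance gives about 1 in 20. The log2 ratio of Id1 to Id3 in sham replicate 8 was 0.36, while the other 7 sham hearts lay between -1.21 and -0.53, so this library was far from the others of its group. It held the highest Id1 (87.2 CPM) and the lowest Id3 (67.8 CPM) of the sham hearts. Its ratio lay on the side away from the infarct zone, and without any single library the fall in this ratio stayed between -2.72 and -2.50.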

How the results depend on the processing

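The fit called 8544 genes and 43 other pathway genes. Testing only the 6734 genes with a mean of at least 50 counts called 5239 and 24. Comparing medians left 2 of the 4 ratios between genes past the threshold, losing Bmp4 to Bmp6 and Bmpr1a to Bmpr2. With total counts alone 0 pairs were correlated past the adjustment by both r and rho (Bmp6 and Id1 passed by r), 10727 genes were called, and the sign turned for Bmp6 (0.46), Bmpr1a (0.38), Bmpr2 (0.86), Eng (0.87), Pcsk6 (0.24), Smad7 (0.95) and Twsg1 (1.0). Twsg1 was 0.018 with upper quartile scaling. Thinning gave -0.11 for Smad6 and 0.15 for Smad7. Leaving out 1 library at a time moved Smad6 from -0.16 to 0.14, which took it through 0 without passing the test, and the ratio of Bmp6 to the endothelial markers from -0.26 to 0.035. For none of these turns was the cause tested.

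Sham and infarct zone libraries share replicate numbers only by name: their deviations from the group means correlated at -0.22 to 0.13 over 8 pairs of equal number, and 1 of 8 sham libraries correlated best with its own number. With the replicate block 7883 genes were called, against 8153 in the same 16 libraries without it (a comparison added after seeing the data), and 6 of the 10 genes were called in place of 7, Bmp6 being the one lost (-0.60, adjusted p = 0.0587, edgeR). With the block, 39 other pathway genes, 4 ratios between genes and 15 ratios to marker sums passed. Bmp1, Fstl1, Fstl3, Id3 and Bmpr1a passed in all 27 alternatives that tested them, Bmpr1a with its sign turned once. Grem1, the classical antagonists and Smad9 had too few counts to be tested, and low depth was not told apart from low expression.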
